A study of Homo sapiens with 4 samples.

Results

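The nuclear genes for mitochondrial ribosomal proteins were examined in Hey-A8 cells, a human ovarian cancer line, with a control hairpin or a hairpin labelled as directed at SPTLC2. Members were the protein-coding genes of the deposited count table whose symbol is MRPL (large subunit) or MRPS (small subunit) followed by a number and at most a letter from A to C. This rule found 78 of 58735 genes, 49 of the large and 29 of the small subunit, and used no measured value. The shCON group (negative control, scrambled hairpin) and the shSPTLC2 group (SPTLC2 knockdown) each had 2 libraries, and both share the same cell line. The design text describes a stable knockdown, whereas the treatment protocol names GIPZ plasmids with hairpins against ZDHHC15, given by transient transfection 36 h before harvest. Groups were taken from the titles. The labels do not state whether replicates came from separate cultures, so every p-value measures only the spread between these libraries. It is also not stated whether the cells are clones or pools, and in bulk RNA fewer cells of a kind and less RNA per cell cannot be told apart.

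Mitochondrial ribosomes translate the mRNAs of the mitochondrial genome, all of which encode subunits of the respiratory chain and ATP synthase. Their rRNAs come from the mitochondrial genome, but all of their proteins are encoded in the nucleus, made in the cytosol and imported. Some of these proteins descend from bacterial ribosomal proteins, and others were added in mitochondria. The small subunit binds and decodes the mRNA, and the large subunit joins the amino acids and is anchored at the inner membrane, where the products are inserted.

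SPTLC2, a catalytic subunit of serine palmitoyltransferase, was at 58.7 and 60.7 CPM (counts scaled to a common library size, with TMM factors) in the shCON libraries and 39.9 and 43.1 in the shSPTLC2 libraries. Its log2 fold change, here always shSPTLC2 over shCON, was -0.52 ± 0.12 (SE; adjusted p = 0.00627), and the call ended without either shSPTLC2 library (adjusted p = 0.134 and 0.0519). No library held a count of ZDHHC15, and the limit set by 3 counts is 0.195 to 0.206 CPM. Library totals ran from 14464784 to 15084966 counts. Of 5 epithelial markers (KRT8, KRT18, KRT19, EPCAM and CDH1), 3 had enough counts to be tested and 0 were called. In shCON replicate 1 they summed to 1745 CPM, with the keratin genes KRT8 at 1269 and KRT18 at 473 CPM. The epithelial cadherin gene CDH1 was at 0 counts. The 4 mesenchymal markers (VIM, CDH2, FN1 and ZEB1) summed to 6546 and 6189 CPM in shCON and 5780 and 6143 CPM in shSPTLC2, and 0 were called. Of 4 ovarian lineage markers, PAX8 rose from 273 and 294 CPM to 494 and 444 CPM (0.73 ± 0.11), MSLN rose (0.61 ± 0.16), WT1 was not called (-0.30 ± 0.21) and MUC16 had at most 1 count. Their sum was 294 and 313 CPM in shCON and 519.6 and 466 CPM in shSPTLC2. The 5 immune markers summed to 0.14 to 0.40 CPM in every library, with CD3E at 0. Of 4 endothelial markers, CDH5 rose (57.2 and 55.2 CPM in shCON, 109 and 130.3 in shSPTLC2) and made up most of the sum, which was 61.4 and 59.9 CPM in shCON and 110.4 and 133 CPM in shSPTLC2. The other 3 were at or under 2.09 CPM in every library and lower in both shSPTLC2 libraries: PECAM1 fell, and VWF (-0.61 ± 0.48) and KDR (-0.98 ± 0.49) were not called. Of RNAs retained in the nucleus, NEAT1 was at 506 and 909 CPM in shCON and 1011 and 1129.7 in shSPTLC2 (0.60 ± 0.31, not called), and MALAT1 at 220.1 and 346 CPM against 322 and 329 (0.20 ± 0.19, not called). Both were lowest in shCON replicate 1. The share of counts from the mitochondrial genome was 5.46% and 6.39% in shCON and 10.1% and 8.56% in shSPTLC2. The part of these marker, nuclear RNA and mitochondrial shares in the results was not tested.

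All 78 genes passed the filter on low counts. With a gene called at an adjusted p under 0.05, 16 of 78 (20.5%) were called, against 19.4% of all 15313 tested genes. By direction, 14 (17.9%) were lower in shSPTLC2, against 9.00% of all tested genes, and 2 (2.56%) were higher, against 10.4%. At an unadjusted p under 0.05, 31 of the 78 differed, against 5081 of all 15313 tested genes. Both shSPTLC2 libraries lay below both shCON libraries for 34 genes (43.6%, against 30.2% of all tested genes), and above them for 9 (11.5%, against 31.3%). The groups thus did not overlap for 43 members, and for 61.5% of all tested genes. The median log2 fold change of the 78 genes was -0.14, against 0.005 over all tested genes, and 57 had a fitted value below 0 (49.5% of all tested genes did). Only MRPL46 differed by 2-fold or more. The summed level of the members was 4178 and 4320 CPM in shCON and 3937 and 3791 CPM in shSPTLC2. These sums did not overlap between groups, and the ratio of the group means was 0.909. The summed CPM of all genes was also lower in both shSPTLC2 libraries, with a ratio of 0.963.

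The subunits were compared next, since a ribosome needs equal numbers of each. Of 49 large subunit genes, 2 rose, 8 fell and 39 were not called. Of 29 small subunit genes, 0 rose, 6 fell and 23 were not called. Genes called lower were thus 16.3% of the large and 20.7% of the small subunit, with median log2 fold changes of -0.12 and -0.16. Summed levels of the large subunit were 2605 and 2721 CPM in shCON and 2455 and 2356 CPM in shSPTLC2. For the small subunit the sums were 1573 and 1600 CPM in shCON and 1482 and 1434 CPM in shSPTLC2. The ratio of large to small subunit sums was 1.66 and 1.70 in shCON and 1.66 and 1.64 in shSPTLC2. This ratio overlapped between the groups, and the difference between subunits was not tested.

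**Figure D1:**
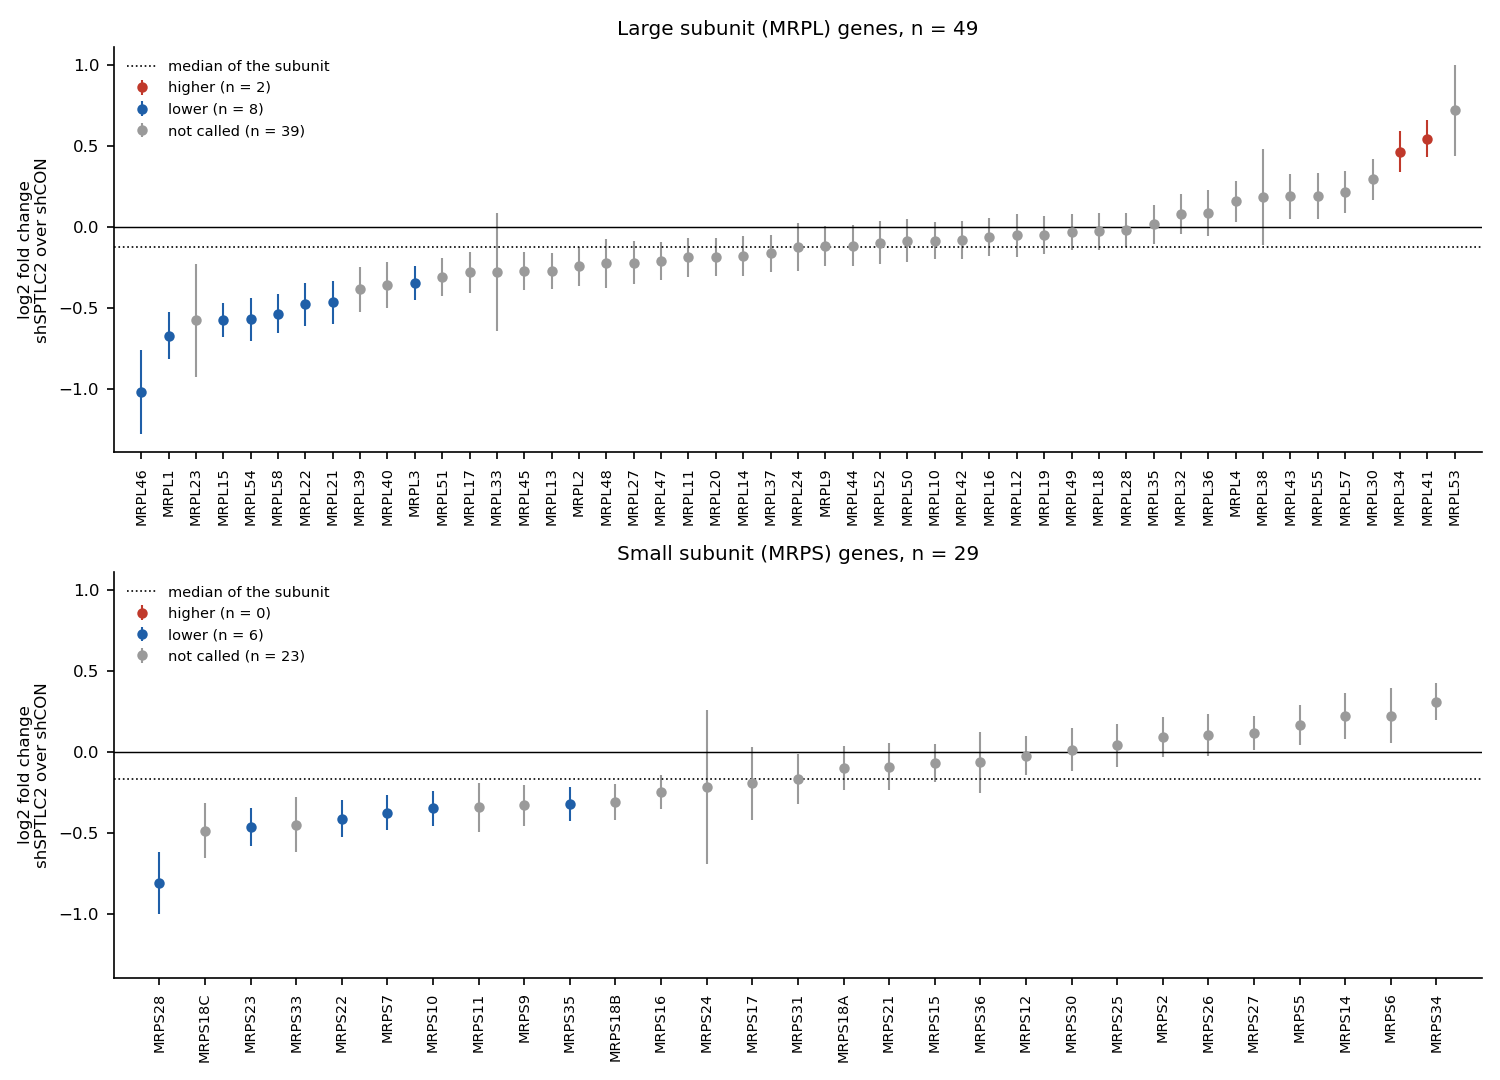
Fitted log2 fold change (shSPTLC2 over shCON, with SE) of each of the 49 large and 29 small subunit genes, ordered by value, with called genes in colour. The dotted medians, -0.12 and -0.16, lie below 0 in both panels, and the called genes are 10 of the large and 6 of the small subunit.

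In the large subunit, the smallest adjusted p belonged to MRPL15, the most abundant large subunit transcript per length at 104.9 ± 1.58 FPKM (fragments scaled by gene length and library size; SD, n = 2) in shCON. MRPL15 was at 123 and 127 CPM in the shCON libraries and 86.5 and 81.8 in the knockdown libraries (-0.58 ± 0.11, adjusted p = 0.00186). MRPL1, whose protein forms the mobile stalk beside the exit site of the tRNA, was at 22.7 and 22.1 CPM in shCON and 15.03 and 13.1 in shSPTLC2 (-0.67 ± 0.15, adjusted p = 0.00550). Both genes were low in both shSPTLC2 libraries, with little spread within a group. MRPL58, also called ICT1, encodes a peptidyl-tRNA hydrolase that sits in the large subunit. MRPL58 was at 48.5 and 50.7 CPM in shCON and 33.8 and 34.5 in shSPTLC2 (-0.54 ± 0.12, adjusted p = 0.00612).

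MRPL54 and MRPL46 encode proteins without a bacterial counterpart. MRPL54 was at 34.5 and 40.8 CPM in shCON and 25.2 and 25.4 in shSPTLC2 (-0.57 ± 0.13, adjusted p = 0.00772). MRPL46 had the largest fall of all members, from 7.55 and 10.6 CPM to 3.47 and 5.47 CPM (-1.02 ± 0.26, adjusted p = 0.0124), and had the lowest mean FPKM of the large subunit over the 4 libraries (1.41 ± 0.329 in shCON). The gene lies at chr15:88459476-88467419 (minus strand, hg38). Its replicates were further apart than those of the other genes in this paragraph, at 51 and 84 counts in shSPTLC2. MRPL46 overlaps the coding gene AC013489.1 on the same strand, which had at most 2 counts a library. The part of this overlap in the counts of MRPL46 was not tested. MRPL22, which lines the tunnel through which the new protein leaves, fell by 0.48 ± 0.13 on the log2 scale. MRPL21 fell by 0.47 ± 0.13 and MRPL3, a protein near the catalytic centre, by 0.35 ± 0.10. For these 3 genes too, neither shSPTLC2 library reached the lower shCON library.

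The 2 genes that rose, MRPL41 and MRPL34, both belong to the large subunit. MRPL41, which has no bacterial counterpart, was at 45.5 CPM in both shCON libraries and at 68.3 and 64.4 CPM in shSPTLC2 (0.55 ± 0.11, adjusted p = 0.00420). MRPL34, of bacterial descent, was at 27.0 and 25.6 CPM in shCON and 36.9 and 35.7 in shSPTLC2 (0.46 ± 0.13, adjusted p = 0.0179). MRPL41 lies at chr9:137551199-137552555 (plus strand, hg38) and MRPL34 at chr19:17292609-17306843 (plus strand). Transcripts of both are rich in G and C, at 71.9% for MRPL41 and 59.2% for MRPL34. After a correction for GC content neither was called: MRPL41 was at 0.11 (adjusted p = 0.541) and MRPL34 at 0.35 (adjusted p = 0.0593), and 0 members were called higher. The largest fitted rise, 0.72 ± 0.28 for MRPL53, was not called (adjusted p = 0.0818), at 42 and 37 counts in shCON and 70 and 63 in shSPTLC2. MRPL53 overlaps CCDC142 on the same strand, which had 139 to 229 counts a library and rose (0.53 ± 0.17, adjusted p = 0.0395). The part of this overlap in the counts of MRPL53 was not tested.

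In the small subunit, MRPS28 had the largest fall, from 16.3 and 24.8 CPM in shCON to 10.7 and 12.8 in shSPTLC2 (-0.81 ± 0.19, adjusted p = 0.00969). MRPS23, which has no bacterial counterpart, was at 74.4 and 82.9 CPM in shCON and 59.6 and 54.5 in shSPTLC2 (-0.46 ± 0.12, adjusted p = 0.0119). MRPS22, a gene in which variants cause mitochondrial disease, was at 73.6 and 73.0 CPM in shCON and 52.4 and 58.0 in shSPTLC2 (-0.41 ± 0.11, adjusted p = 0.0205). In each of these 3 the groups did not overlap, and the shCON libraries lay further apart for MRPS28 than for MRPS22. MRPS7 and MRPS10, of bacterial descent, lie in the head of the small subunit. MRPS7 fell by 0.37 ± 0.11 and MRPS10 by 0.35 ± 0.11 on the log2 scale. MRPS35 fell by 0.32 ± 0.11, and its adjusted p, 0.0480, was the closest of the called members to the threshold. Of the genes just outside it, MRPS18C was at -0.48 ± 0.17 (adjusted p = 0.0587), MRPS18B at -0.31 ± 0.11 (0.0630) and MRPS34 at 0.31 ± 0.11 (0.0640). MRPS34 was the most abundant small subunit transcript per length, at 71.0 ± 1.74 FPKM in shCON and 87.6 ± 8.90 in shSPTLC2.

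**Figure D2:**
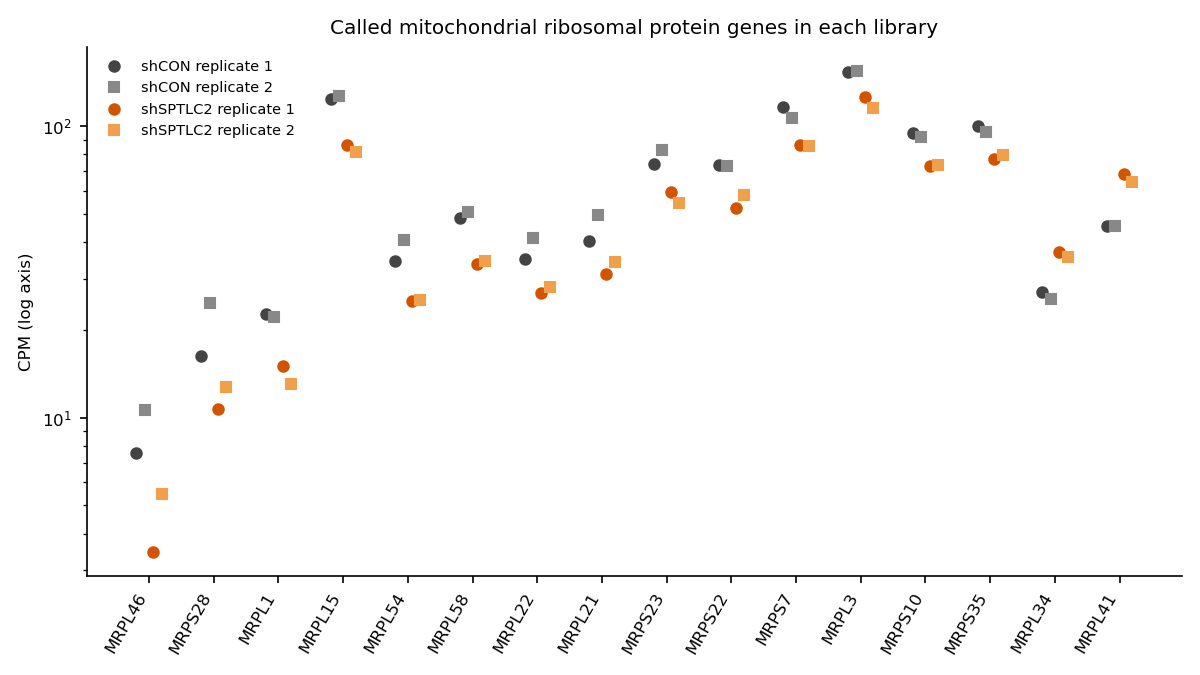
CPM on a log axis of the 16 called genes in each of the 4 libraries, ordered by fold change, with circles for replicate 1 and squares for replicate 2. For 14 genes both shSPTLC2 libraries lie below both shCON libraries, and for MRPL34 and MRPL41 they lie above them.

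These calls leaned on having both shSPTLC2 libraries. Without shSPTLC2 replicate 1 only MRPL15 and MRPL1 were called, both lower, and without shSPTLC2 replicate 2 only MRPL46 (lower) and MRPL41 (higher). Over all genes the share called then fell to 3.97% and 6.17%. Without shCON replicate 1, 25 members were called lower and 3 higher, and 13 of these 28 genes were not called with all libraries. Leaving out shCON replicate 2 gave 15 lower and 3 higher, and ended the calls of MRPL21 (adjusted p = 0.111), MRPL22 (0.0690) and MRPS28 (0.0521). MRPS35 was called under only 5 of 14 alternatives, with an adjusted p of 0.0542 without shCON replicate 1, while MRPL15 and MRPL1 were called under 13.

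For some members the symbol does not give the place. MRPS18A and MRPS30 are found in the large subunit in structures of the human mitochondrial ribosome, and MRPS36 has since been assigned to the 2-oxoglutarate dehydrogenase complex. Their log2 fold changes were -0.10 ± 0.14, 0.02 ± 0.13 and -0.06 ± 0.19, and 0 of the 3 were called. Counted by place, 8 of 51 large and 6 of 26 small subunit genes were lower, with medians of -0.12 and -0.20. By descent, large subunit genes with a bacterial counterpart had 1 higher and 5 lower of 29, and those without had 1 and 3 of 19. In the small subunit these counts were 0 and 2 of 15 with a counterpart and 0 and 3 of 9 without. The medians of the 4 classes ran from -0.19 to -0.11, and 6 members were not assigned to a class.

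Levels of the members ranged widely. The median over genes of the mean FPKM was 20.2 in the large and 13.2 in the small subunit. MRPL51 (78.6 ± 11.2 FPKM in shCON, 63.1 ± 2.90 in shSPTLC2), MRPL37 (70.6 ± 9.06 and 62.7 ± 4.204) and MRPL14 (56.4 ± 2.00 and 49.5 ± 4.90) followed MRPL15 in the large subunit. MRPL51 and MRPL37 overlapped in each group, so their order is not fixed by these libraries, while MRPL14 was below both in every library. MRPS16 (52.1 ± 3.04 FPKM in shCON, 43.7 ± 1.93 in shSPTLC2), MRPS35 (49.2 ± 1.83 and 39.2 ± 0.926) and MRPS2 (42.0 ± 6.71 and 44.6 ± 4.27) followed MRPS34 in the small subunit. MRPL38 (1.27 ± 0.492 and 1.44 ± 0.408) was near the bottom of the large subunit. It overlaps the coding gene AC087289.3 on the same strand, which had at most 2 counts a library. MRPS24 was lowest of all (0.441 ± 0.0707 FPKM in shCON, 0.376 ± 0.168 in shSPTLC2). At 10 to 20 counts a library, its log2 fold change of -0.21 had an SE of 0.48. A change of the size seen in the called members was therefore not detectable at these counts. MRPS24 overlaps the coding gene URGCP-MRPS24 on the same strand, which had 0 counts in every library. The part of this overlap in the low counts of MRPS24 was not tested.

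Fold changes followed base composition in part. Members were split at 45.4% and 54.9% GC, which divide the tested coding genes into 3 groups of equal size. In the lowest group 0 of 24 members rose and 6 fell (median -0.19), and in the middle group 0 of 32 rose and 7 fell (median -0.22). In the highest group 2 of 22 rose and 1 fell (median -0.02). The medians of all coding genes in these groups were -0.04, -0.09 and 0.13, so the members lay below them by a similar amount in each. Across the 78 members, which share libraries and depth, the correlation of fold change with GC content was 0.30 (Pearson) and 0.26 (Spearman). With GC content corrected, 15 members were called lower and the subunit medians were -0.18 (large) and -0.17 (small), against -0.03 over all genes.

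**Figure D3:**
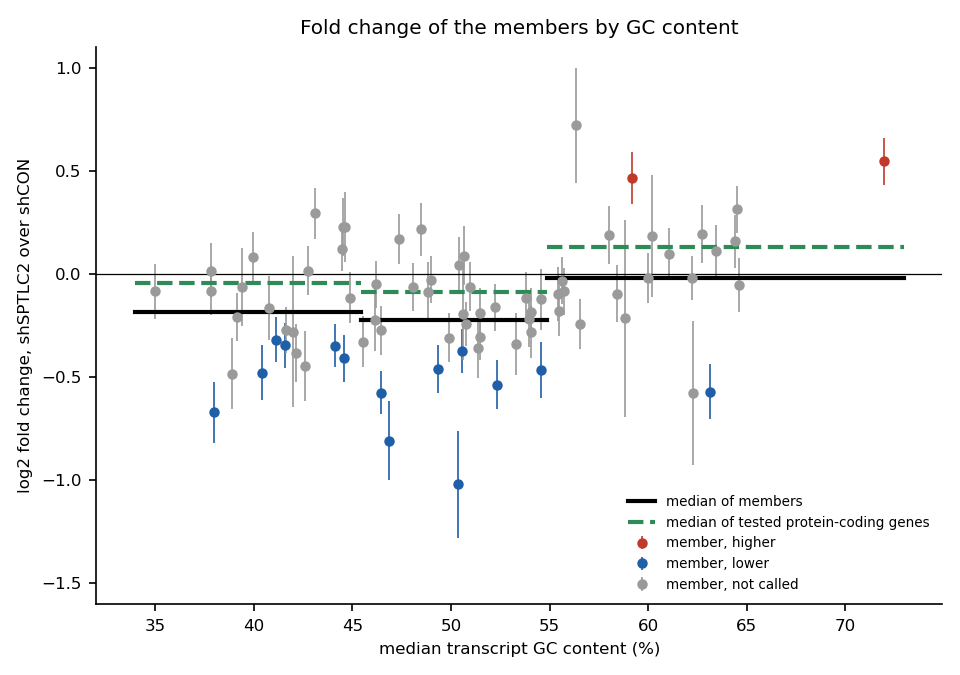
Log2 fold change (with SE) of each member against the median GC content of its transcripts in percent, with medians of the members (solid) and of tested protein-coding genes (dashed) in the lowest, middle and highest GC group. The solid line lies below the dashed line in each group, at -0.19, -0.22 and -0.02 against -0.04, -0.09 and 0.13, and the 2 genes called higher lie in the highest group.

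The members' promoters, which the rule did not use, were searched for motifs. RefSeq windows (build GRCh38.p14) of 250 bases before to 50 after the start were matched for 69 of the 78 genes. Where a member had several windows, the one nearest its start in the count table was used. For the other coding genes the first listed window was used, so the shares rest on windows chosen by unlike rules. Both strands were searched for 4 motifs of factors known at genes for mitochondrial proteins or growth. CCGGAAG, the core bound by ETS factors such as GABPA, was found in 42.0% of the members' windows, against 10.3% of all 35116 windows and 19.2% of those of the other tested coding genes. AAGATGGCG, bound by YY1, was found in 18.8%, against 1.75% and 3.90%. GCGCAN followed directly by GCGC, bound by NRF1, was in 11.6% (5.78% and 11.7%), and CACGTG, the E-box bound by MYC and its relatives, in 10.1% (7.26% and 10.1%). The ETS and YY1 motifs were thus more frequent among the members than among other coding genes, though in a minority of members, and the other 2 were at about the share of other coding genes. These motifs do not contain one another. Of the called members, 11 that fell and both that rose had a window. CCGGAAG was in 6 of the 11 and in 0 of the 2, AAGATGGCG in 3 and 0, CACGTG in 1 and 0, and the NRF1 motif in 0 and 0. A match is a description of the letters and not evidence of binding.

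The 120 bases before the RefSeq start are shown for 5 of the 6 genes that fell with this ETS core, which carry the most common of the 4 motifs. Capitals mark CCGGAAG, or CTTCCGG where the match is on the other strand. Coordinates are those of GRCh38.p14, and each sequence reads 5′ to 3′ along the gene's own strand.
MRPL58 (chr17:75012550-75012669, plus strand): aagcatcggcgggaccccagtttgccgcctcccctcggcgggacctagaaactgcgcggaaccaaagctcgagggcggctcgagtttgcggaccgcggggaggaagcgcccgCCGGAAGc
MRPL54 (chr19:3762562-3762681, plus strand): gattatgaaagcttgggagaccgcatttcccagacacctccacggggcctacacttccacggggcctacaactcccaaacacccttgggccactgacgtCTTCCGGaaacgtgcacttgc
MRPL3 (chr3:131502972-131503091, minus strand): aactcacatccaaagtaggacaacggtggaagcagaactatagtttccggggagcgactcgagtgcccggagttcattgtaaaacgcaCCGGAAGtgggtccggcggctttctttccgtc
MRPS23 (chr17:57850045-57850164, minus strand): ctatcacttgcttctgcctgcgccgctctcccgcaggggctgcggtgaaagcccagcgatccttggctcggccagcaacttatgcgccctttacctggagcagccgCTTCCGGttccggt
MRPS10 (chr6:42217862-42217981, minus strand): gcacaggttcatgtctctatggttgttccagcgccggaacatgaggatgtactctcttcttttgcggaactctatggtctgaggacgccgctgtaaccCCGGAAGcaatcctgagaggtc
In each of the 5 the match lies nearer to the start than to the far end of the stretch. The remaining gene, MRPS22, holds the motif on both strands, as does the full window of MRPL58. The RefSeq start used for MRPS22 lies 338188 bp from its start in the count table. The fold changes of these 6 genes ran from -0.57 to -0.35, within the range of the 14 that fell.

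Many members start beside another gene. By the starts in the count table, a coding gene on the opposite strand started within 1000 bp upstream of 17 members. MRPL46 and MRPS11 start 34 bp apart on chromosome 15. MRPS11 was at 23.5 and 29.7 CPM in shCON and 22.4 and 19.6 in shSPTLC2, -0.34 ± 0.15 (adjusted p = 0.126), against -1.02 for MRPL46. MRPL41 and its neighbour PNPLA7, 665 bp away, both rose (PNPLA7 1.03 ± 0.25, adjusted p = 0.00927). The RefSeq start of MRPL41, used for the motifs, lies 680 bp further from PNPLA7. MRPL54 fell while APBA3, which starts 965 bp away, rose (0.76 ± 0.16, adjusted p = 0.00417). No other of these pairs had both genes called.

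Overlap with other genes limits some values. How strand was handled in counting is not given in the sources used here. It is therefore not known whether reads of overlapping genes on opposite strands were told apart. MRPS22 overlaps COPB2, which also fell (-0.38, adjusted p = 0.0301), and MRPL34 overlaps ABHD8, which also rose (0.77, adjusted p = 0.0134). MRPS7 overlaps GGA3 (0.01, adjusted p = 0.980). Of the 16 called members, 4 overlap a gene with a mean of at least 10 counts, the fourth being MRPS28 with a transcript inside its intron. Below that limit, MRPL46 and MRPS28 overlap coding genes on the same strand. These are AC013489.1, with at most 2 counts a library, and AC036214.3, with at most 1. How reads shared by overlapping genes were counted is not given in the sources used here, and the effect on these members was not tested. The table also holds 75 pseudogene copies of 34 members. Their counts were over 1% of the parent's for 4 genes, MRPS31 (17.0%), MRPL45 (5.32%), MRPL53 (3.30%) and MRPL40 (1.66%), so the counts of these genes are uncertain. None of the 4 was called.

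Other genes of mitochondrial translation were examined from lists drawn up from general knowledge. Of 5 mitochondrial ribosomal proteins with other symbols, 1 rose and 1 fell. DAP3, a GTP-binding protein of the small subunit, was at 154 and 152 CPM in shCON and 117 and 116 in shSPTLC2 (-0.39 ± 0.10, adjusted p = 0.0143). PTCD3, also of the small subunit, was at 62.2 and 54.4 CPM in shCON and 76.2 and 75.5 in shSPTLC2 (0.38 ± 0.12, adjusted p = 0.0308). AURKAIP1, GADD45GIP1 and CHCHD1 were at -0.10, -0.16 and -0.07 and were not called.

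Of 30 assembly factors, 0 rose, 5 fell and 25 were not called (median -0.08). The helicase genes DDX28 (-0.70 ± 0.16) and DHX30 (-0.33 ± 0.10), which help to build the large subunit, fell. The rRNA methyltransferase gene NSUN4 (-0.42 ± 0.12), the ribonuclease gene YBEY (-0.84 ± 0.27) and NDUFAB1, the mitochondrial acyl carrier protein (-0.52 ± 0.12), fell with them. Of 18 translation factors, 1 rose, 3 fell and 14 were not called (median -0.12). The elongation factor gene GFM1 was at 120 and 108 CPM in shCON and 79.6 and 81.4 in shSPTLC2 (-0.50 ± 0.11). The initiation factor gene MTIF2 (-0.39 ± 0.12) and TACO1 (-0.50 ± 0.12), which promotes translation of MT-CO1, fell, and the release factor gene MTRF1 rose (0.61 ± 0.16). The abundant TUFM (-0.15 ± 0.10) and LRPPRC (-0.24 ± 0.13) were not called.

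Of 19 aminoacyl tRNA synthetases that serve mitochondria, 2 rose, 3 fell and 14 were not called (median -0.28). GARS (-0.65 ± 0.12) and KARS (-0.35 ± 0.10), which also serve the cytosol, and SARS2 (-1.13 ± 0.33) fell, while VARS2 (0.63 ± 0.13) and CARS2 (0.40 ± 0.11) rose. Of 24 genes for mitochondrial transcription and RNA processing, 2 rose (FASTKD1, 0.60 ± 0.12, and GTPBP3, 0.40 ± 0.13), 1 fell (ELAC2, -0.33 ± 0.10) and 21 were not called. TFAM, which packages the mitochondrial genome, was at -0.31 ± 0.11 (adjusted p = 0.0505). Over these 5 lists, of 5, 30, 18, 19 and 24 genes, 6 genes rose and 13 fell. By list the share called ran from 12.5% (transcription and processing) to 40% (other ribosomal proteins), against 19.4% of all tested genes. With GC content corrected GTPBP3 was at 0.10 (adjusted p = 0.605). Without shCON replicate 2, PTCD3 (adjusted p = 0.102), YBEY (0.321), SARS2 (0.184) and GTPBP3 (0.0802) were not called. Without shSPTLC2 replicate 1, 0 of the listed genes were called, and without shSPTLC2 replicate 2, 1 was called higher and 2 lower.

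Of 15 regulators tested, 2 rose, 4 fell and 9 were not called. NRF1 (-0.24 ± 0.20), GABPA (-0.17 ± 0.13) and YY1 (0.06 ± 0.12), whose motifs were searched above, were not called. GABPB2, which encodes a partner of GABPA, fell (-0.53 ± 0.16, adjusted p = 0.0318, and 0.0543 without shCON replicate 2). MYC was at 674 and 597 CPM in shCON and 364 and 373 in shSPTLC2 (-0.78 ± 0.11). ATF5 (-1.20 ± 0.16) and DDIT3 (-1.19 ± 0.18), factors of the mitochondrial and integrated stress responses, fell, ATF4 was at -0.33 ± 0.12 (adjusted p = 0.0565), and TFEB (1.91 ± 0.28) and PPARGC1B (0.88 ± 0.15) rose. Of 13 chaperone and protease genes, 1 rose and 3 fell. AFG3L2 (-0.97 ± 0.12) and SPG7 (0.36 ± 0.11), the subunits of the protease that matures MRPL32, went opposite ways, while MRPL32 itself was at 0.08 ± 0.12 and was not called. HSPA9, the mitochondrial Hsp70 (-0.64 ± 0.11), and DELE1, which relays mitochondrial stress (-0.41 ± 0.12), fell. Without shSPTLC2 replicate 1 only 1 gene of this list was called, and without replicate 2 only 2.

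Products and relatives of the mitochondrial ribosome are given beside it. Of 13 mRNAs of the mitochondrial genome, 4 rose, 0 fell and 9 were not called (median 0.37). Their fitted values ran from -1.69 to 1.04, with 2 of them below 0. MT-CO1, for example, was at 11838 and 12930 CPM in shCON and 27443 and 23444 in shSPTLC2 (1.04 ± 0.14). Both rRNAs of the mitochondrial ribosome rose, MT-RNR2 by 0.59 ± 0.14 and MT-RNR1 by 0.50 ± 0.15, so these RNAs and the median of the protein genes lay on opposite sides of 0. Of 82 nuclear respiratory chain subunits, 3 rose and 7 fell (8.54%; median -0.22). Of 84 cytosolic ribosomal proteins, 1 rose and 15 fell (17.9%; median -0.30), and both shSPTLC2 libraries were below both shCON libraries for 54. The negative median and the share called lower were therefore not particular to the mitochondrial ribosome, and differences between these groups were not tested. These 3 groups were chosen by symbol or chromosome after the data had been seen.

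**Figure D4:**
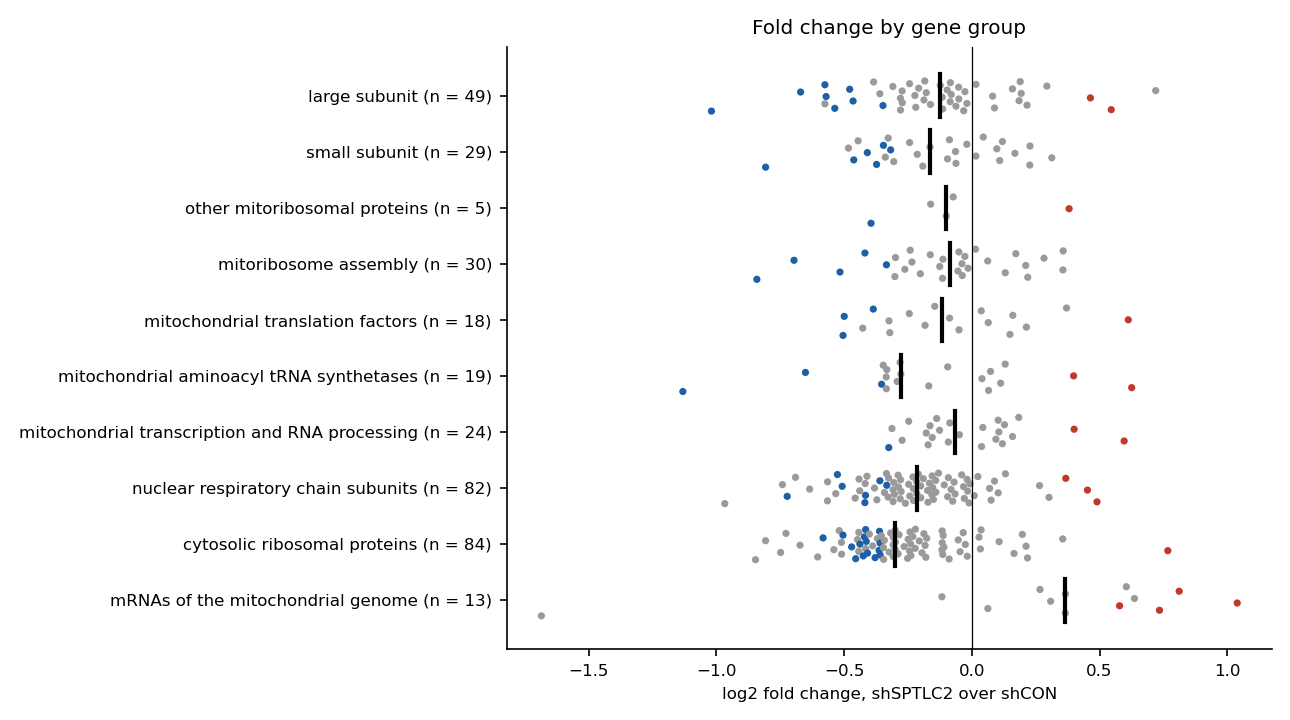
Log2 fold change of each tested gene in the large and small subunit and in 8 related groups, with black bars for group medians and colour for called genes (red higher, blue lower, grey not called). Medians are below 0 for every group shown except the mRNAs of the mitochondrial genome, at 0.37.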

How the data were processed

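Total RNA of 4 Hey-A8 libraries went into NEBNext Ultra libraries, per the labels' protocols. The deposited count table holds the authors' raw read counts per Ensembl gene, and the deposited FPKM table holds FPKM made by the authors from gene length. Per the submitters' processing notes, the tools were HISAT2, StringTie and SAMtools and the build was hg38. The counting program is not given in the sources used here. IDs, starts and ends of all 58735 genes matched GENCODE 29, whose transcripts gave GC content.

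Counts were filtered by edgeR 4.0.16 (filterByExpr, minimum count 10, minimum total 15), scaled by TMM and tested by a robust quasi-likelihood F test, two-sided and without covariates, in R 4.3.3. P-values were Benjamini-Hochberg adjusted over all 15313 tested genes, and SE is the size of the log2 fold change divided by the root of F. DESeq2 1.42.0 and limma 3.58.1, the latter on log2 CPM (prior count 2) and on log2(FPKM + 0.1), were alternatives, with the other settings named in the closing section. Apart from that alternative, FPKM was used only to compare levels between genes.

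Tested on simulated counts, the fit missed most changes of 1.5-fold, and more of its calls were false than the 5% aimed at. Members, lists and the naming rule were chosen with earlier results of these data known. The rule named called members, those with the highest and lowest FPKM, those with the largest changes without overlap, and the leading genes of each list. Floors and intervals cover counting error only.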

Additional observations from a re-analysis of the deposited data

How the results depend on the processing

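The direction of the subunit medians was stable and the calls were not. The median log2 fold change stayed below 0 for both subunits under every alternative in which it was computed. Leaving out 1 library at a time gave medians of -0.18 to -0.09 (large) and -0.30 to -0.15 (small), 0 to 3 members called higher and 1 to 25 lower (large 0 to 2 and 1 to 16; small 0 to 1 and 0 to 9), and 413 to 1977 higher and 227 to 2050 lower over all genes. In the same fits the 5 translation lists together had 0 to 6 higher and 0 to 19 lower. By list, genes called ran from 0 to 2 (other ribosomal proteins), 0 to 8 (assembly), 0 to 6 (translation factors), 0 to 8 (synthetases), 0 to 4 (transcription and processing), 1 to 6 (stress and proteases) and 0 to 2 (MALAT1 and NEAT1). The lone library of a group is then assumed to vary like the others.

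Scaling by library totals moved the small subunit median to -0.11, with 1 member higher and 3 lower there, and moved the median of all genes to 0.06. Keeping genes of at least 5 CPM gave a small subunit median of -0.11 and 1 small subunit gene higher. GC correction, alone or with the replicate block, left 0 members (0 of the large subunit) called higher. Limma on log2(FPKM + 0.1) called 920 genes higher and 799 lower. Of the members it called 5 lower (4 large, 1 small), and MRPL41, MRPL34 and MRPL53 (adjusted p = 0.0414) higher. In the translation lists it called 3 higher and 6 lower. By list it called 1 (other ribosomal proteins), 2 (assembly), 2 (synthetases), 1 (transcription and processing) and 2 (stress and proteases). DESeq2 called 1 of the other ribosomal proteins, and 1 of MALAT1 and NEAT1 was called with no filter, with the block and with the block and GC correction. The cause of these shifts was not tested.

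The labels link same-numbered libraries only by their number, and their deviations from the group means correlated at -0.013 over 15313 genes. Whether such libraries shared a culture or a batch is not stated. With the replicate block, 2 members were higher and 16 lower. For single genes, 1393 values under alternatives kept direction and side of the threshold, 136 were weaker and 33 stronger. Some members that were not called with all libraries changed sign. MRPL33 was at -0.28 with all libraries and at 0.32 without shCON replicate 2. MRPL4 was at 0.16, and at -0.10 with GC content corrected.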

Other observations

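MRPL23 and MRPL33 stood apart among the members by the distance between the shCON libraries. MRPL23 had 626 counts in shCON replicate 1 and 313 in shCON replicate 2, against 332 and 310 in shSPTLC2. MRPL33 had 291 and 582 counts in shCON and 361 and 376 in shSPTLC2. The exact 95% Poisson intervals of the shCON counts, which cover counting error only, were 577.9 to 677 and 279.3 to 349.7 for MRPL23 and 258.5 to 326.4 and 535.7 to 631.3 for MRPL33. Normalized levels differed 1.96-fold and 2.04-fold between the shCON libraries, in opposite directions, whereas the median member differed 1.12-fold in shCON and 1.07-fold in shSPTLC2. The fitted log2 fold changes, -0.58 ± 0.35 and -0.28 ± 0.36, were not called (adjusted p = 0.333 and 0.654). The calls turned on these libraries: without shCON replicate 2 MRPL23 was at -0.99 (adjusted p = 2.0e-09), and without shCON replicate 1 MRPL33 was at -0.71 (adjusted p = 2.1e-05). MRPL23 was also called with no filter (adjusted p = 0.00380) and with the replicate block (0.0182). MRPL33 overlaps other genes (BABAM2 on the same strand, RBKS on the opposite one), and the part of this in its counts was not tested.

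SARS2, which fell, overlaps the member MRPS12 on the opposite strand. MRPS12 was at -0.02 ± 0.12, and SARS2 had 25 to 70 counts a library against 791 to 889 for MRPS12.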
